A study of Mus musculus with 13 samples.

Results

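A set of 9 myelin genes was followed through a set of 13 mouse brain and brain tumor libraries. The members were Mbp, Mag, Mobp, Mog, Cnp, Cldn11, Ugt8a, Opalin and Ermn, taken by symbol from the gene annotation, and all 9 were found among the 55416 genes of the count table. Glioblastomas had been started with a lentivirus in CNP-Cre mice, which carry the allele Cnptm1(cre)Kan, at the motor cortex. The 5 PDGFB tumors (genotype PDGFB-shP53) came from a virus with the growth factor PDGFB and a hairpin RNA against p53, and the 5 RAS tumors (genotype HrasV12-shp53) from a virus with oncogenic HRas and the same hairpin. GFP+ tumor tissue was taken from 5 mice per tumor group at the end stage of disease, and the age of the animals is not given in the sources used here. The 3 normal brain samples were labelled WT. Normal tissue was cut away from the tumors under a dissecting microscope, and the labels do not say whether the 3 samples are such tissue. They name no brain region and no number of animals for normal brain, so effects of brain region and of tumor cannot be told apart in comparisons with normal brain, and p-values may measure technical spread on that side. The allele that drives Cre lies in Cnp itself, which is 1 of the 9 genes, and whether the mice carried it on 1 or both chromosomes is not stated.

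Myelin is the stack of membrane that oligodendrocytes wrap around axons. Mbp holds the cytoplasmic faces of the membrane together, and Mobp is another small protein of compact myelin. Mag and Mog sit on the inner and the outer surface of the sheath, Cldn11 forms its tight junctions, and Ugt8a makes galactosylceramide, the lipid that myelin is rich in. Cnp, Opalin and Ermn belong to the non-compact, cytoplasm-holding parts of the mature cell. Several of these genes are switched on during maturation by the transcription factors Sox10 and Myrf, and precursor cells express little of them.

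Counted reads were few. Each library had 529162 to 643055 reads assigned to genes, which was 3.76% to 4.21% of all its reads, while 84.5% to 87.3% fell in no gene. Genes whose exons overlap an exon on the other strand held 82.4% to 85.2% of the assigned reads, and the strand setting of the count is not stated. Reads under a gene name can therefore be those of a gene on the opposite strand. Exons of Mobp, Mag, Cldn11, Ugt8a and Opalin face no gene on that strand, and those of Cnp and Ermn face exons of Dnajc7 and Galnt5. Mbp and Mog overlap genes on that strand in position, but no exon overlaps an exon. Levels are given as CPM, reads per 1000000 assigned reads of the library after TMM factors, which adjust totals for differences in RNA composition. In bulk tissue, fewer oligodendrocytes and less myelin RNA per oligodendrocyte cannot be told apart.

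The 9 genes fell into 3 patterns. Mbp, Mobp and Mag were lower in both tumor types than in normal brain by about an order of magnitude. Cldn11 and Ugt8a were called lower in RAS tumors, were not called in PDGFB tumors, and were higher in PDGFB than in RAS tumors. Cnp was not called in any comparison. Mog, Ermn and Opalin had too few reads for the fit across all genes, and each had its highest values in normal brain.

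**Figure D1:**
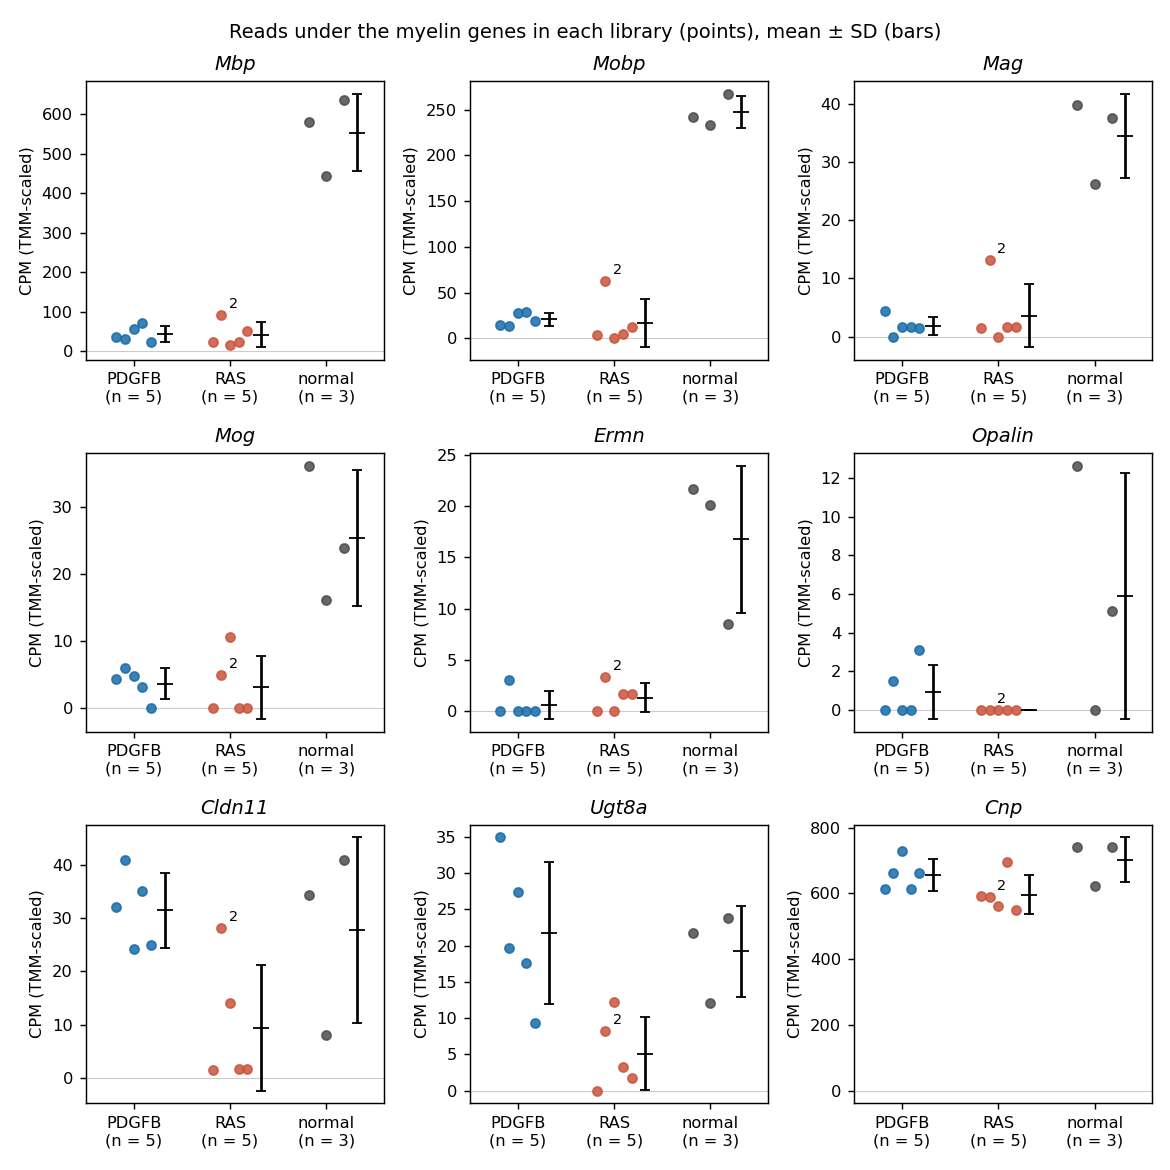
Reads under each myelin gene per library, as CPM scaled by TMM factors (vertical axis, linear), in PDGFB tumors, RAS tumors and normal brain. Points are libraries, bars are the mean and SD, and the digit 2 marks RAS tumor 2. For Mbp, Mobp and Mag every tumor lies below every normal brain, while for Cldn11 and Ugt8a the PDGFB tumors overlap normal brain.

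Sequence upstream of the start sites is shown for 3 members that face no gene on the other strand and hold a core site of a lineage factor: Mobp and Mag, which fell in both tumor types, and Opalin, which had no read in any RAS tumor. The bases come from RefSeq promoters of build GRCm38.p6, read 5′ to 3′ on the strand of the gene and ended before the first start of transcription in RefSeq or GENCODE. Capitals mark the core of SOX binding sites, ACAAAG or its reverse complement CTTTGT, and the core of MYRF binding sites, CTGGCAC or its reverse complement GTGCCAG. The cores do not overlap each other here.
Mobp, chr9:120149492-120149706, plus strand: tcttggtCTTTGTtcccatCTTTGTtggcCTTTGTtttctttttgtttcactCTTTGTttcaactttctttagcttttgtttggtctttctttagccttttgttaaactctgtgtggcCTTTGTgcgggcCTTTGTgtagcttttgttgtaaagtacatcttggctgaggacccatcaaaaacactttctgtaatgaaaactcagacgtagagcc
Mag, chr7:30914923-30915172, minus strand: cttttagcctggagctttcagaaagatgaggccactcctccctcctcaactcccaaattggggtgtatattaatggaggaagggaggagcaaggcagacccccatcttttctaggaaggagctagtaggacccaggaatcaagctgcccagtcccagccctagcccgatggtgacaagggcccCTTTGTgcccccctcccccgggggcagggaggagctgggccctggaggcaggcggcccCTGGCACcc
Opalin, chr19:41077114-41077363, minus strand: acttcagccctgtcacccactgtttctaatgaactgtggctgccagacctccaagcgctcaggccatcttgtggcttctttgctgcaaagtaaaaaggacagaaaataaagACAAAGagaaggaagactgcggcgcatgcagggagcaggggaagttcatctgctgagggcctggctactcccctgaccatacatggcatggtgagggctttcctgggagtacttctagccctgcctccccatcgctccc

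The Mobp stretch held the SOX core 6 times, more often than any other of the 32851 RefSeq promoters searched over the 250 bases before their start. Mag held the SOX core once and the MYRF core once, and Opalin the SOX core once. Of the 8 members with a promoter in the table (Mbp was not among them), 4 held the SOX core, Mobp, Mag, Cnp and Opalin, and 2 held the MYRF core, Mag and Cnp. A member was counted if any of its entries held the core. Of the 10 entries of these members 5 held the SOX core and 3 the MYRF core. Over all promoters 16.5% held the SOX core and 4.19% the MYRF core. A match is a run of letters, not a binding site.

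Mbp, the basic protein that compacts the membrane (chromosome 18, 82475146 to 82585637, GRCm38), had 321, 221 and 374 reads in normal brains 1 to 3. It had 25, 21, 36, 45 and 16 reads in PDGFB tumors 1 to 5, and 16, 56, 10, 14 and 31 in RAS tumors 1 to 5. No tumor came near the lowest normal brain, and the highest tumor was RAS tumor 2. The mean levels were 554 ± 98.4 CPM (SD, n = 3) in normal brain, 44.6 ± 19.6 (SD, n = 5) in PDGFB tumors and 42.1 ± 31.2 (SD, n = 5) in RAS tumors. Mbp was 13.2-fold lower in PDGFB tumors (log2 fold change −3.72 ± 0.40 SE, edgeR adjusted p = 3.07e-06) and 13.7-fold lower in RAS tumors (−3.77 ± 0.41 SE, adjusted p = 1.32e-06). Between the tumor types its log2 difference was 0.05 ± 0.39 SE (adjusted p = 0.936).

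Mobp (chromosome 9, 120149707 to 120181484), the small basic protein of compact myelin, had the tightest normal values, 134, 116 and 157 reads. PDGFB tumors had 10, 9, 17, 18 and 12 reads, a narrow range, and RAS tumors 2, 38, 0, 3 and 7. RAS tumor 2 held more Mobp reads than any PDGFB tumor, and the other 4 RAS tumors fewer. Mobp averaged 248 ± 17.5 CPM in normal brain, 20.6 ± 7.09 in PDGFB tumors and 16.5 ± 26.2 in RAS tumors. The fall was 12.7-fold in PDGFB tumors (log2 fold change −3.67 ± 0.61 SE, edgeR adjusted p = 1.28e-04) and 15.5-fold in RAS tumors (−3.95 ± 0.62 SE, adjusted p = 4.93e-05). Between tumors the log2 difference was 0.28 ± 0.64 SE (adjusted p = 0.768). Without RAS tumor 2 it was 1.93, with Mobp higher in PDGFB tumors (edgeR adjusted p = 0.00361), so that library decides this comparison.

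Mag, the adhesion protein on the axon side of the sheath (chromosome 7, 30899176 to 30914873), had 22, 13 and 22 reads in normal brain. PDGFB tumors had 3, 0, 1, 1 and 1 and RAS tumors 1, 8, 0, 1 and 1, so that outside RAS tumor 2 it was near the limit of detection in every tumor. It averaged 34.5 ± 7.25 CPM in normal brain, 1.83 ± 1.58 in PDGFB tumors and 3.62 ± 5.40 in RAS tumors. Mag was 17.9-fold lower in PDGFB tumors (log2 fold change −4.16 ± 0.69 SE, edgeR adjusted p = 1.37e-04) and 9.40-fold lower in RAS tumors (−3.23 ± 0.64 SE, adjusted p = 3.67e-04). It passed the low-count filter, set at 16.4 CPM, through the 3 normal libraries alone, so a Mag that passed had to be higher there. The difference between tumors was −0.93 ± 0.86 SE on the log2 scale (adjusted p = 0.436), and 0.45 without RAS tumor 2 (adjusted p = 0.719).

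Cldn11, the claudin of the myelin tight junction (chromosome 3, 31149920 to 31164324), did not share this fall in PDGFB tumors. Normal brains had 19, 4 and 24 reads, with the second well below the others. PDGFB tumors had 22, 27, 15, 22 and 16 reads, and as CPM all 5 lay inside the normal range. RAS tumors had 1, 17, 8, 1 and 1, so that only RAS tumors 2 and 3 held more than 1 read. The means were 27.7 ± 17.4 CPM in normal brain, 31.4 ± 7.0 in PDGFB tumors and 9.40 ± 11.7 in RAS tumors. Against normal brain the log2 fold change was 0.07 ± 0.59 SE in PDGFB tumors (edgeR adjusted p = 0.929), and Cldn11 was 3.10-fold lower in RAS tumors (−1.63 ± 0.66 SE, adjusted p = 0.0420). PDGFB tumors stood 3.27-fold above RAS tumors (log2 fold change 1.71 ± 0.57 SE, adjusted p = 0.0302). Libraries of the groups overlapped in each comparison of Cldn11. The call in RAS tumors against normal brain ended without 10 of the 13 libraries, each left out alone (without any PDGFB tumor, RAS tumor 1, 4 or 5, or normal brain 1 or 3), with adjusted p over the 13 fits from 0.00203 to 0.223. The call between tumors ended without PDGFB tumor 1, 2 or 4 or RAS tumor 1, 4 or 5, with adjusted p over the 13 fits from 9.97e-04 to 0.0698.

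Ugt8a, the galactosyltransferase of myelin lipid synthesis (chromosome 3, 125865271 to 125938619), followed the same order. It had 12, 6 and 14 reads in normal brain, 24, 13, 17, 11 and 6 in PDGFB tumors, and 0, 5, 7, 2 and 1 in RAS tumors. The PDGFB tumors covered and exceeded the normal range, and every RAS tumor except 2 and 3 had at most 2 reads. Mean levels were 19.2 ± 6.25 CPM in normal brain, 21.8 ± 9.76 in PDGFB tumors and 5.11 ± 5.06 in RAS tumors. The log2 fold change against normal brain was 0.09 ± 0.53 SE in PDGFB tumors (edgeR adjusted p = 0.902), and in RAS tumors Ugt8a was 3.90-fold lower (−1.96 ± 0.63 SE, adjusted p = 0.0136). PDGFB tumors held 4.15-fold more than RAS tumors (2.05 ± 0.55 SE as log2, adjusted p = 0.00878). With each of the 13 libraries left out, edgeR gave adjusted p from 0.00273 to 0.0311. In fits of these 2 groups only, with or without the replicate block, and of RAS tumors and normal brain only, Ugt8a did not pass the filter and was not tested. The call against normal brain ended without normal brain 1 or 3 (adjusted p = 0.0527 and 0.0712). Of the tumors, 4 PDGFB and no RAS libraries were above the filter level for Ugt8a.

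Counted over the tested members, 3 of 6 fell and 0 rose in PDGFB tumors against normal brain, where 25.1% of all 7722 genes tested were called lower and 20.2% higher. In RAS tumors 5 of 6 fell and 0 rose, beside 29.2% of all genes called lower and 27.0% higher. Between tumor types 2 of 6 were higher and 0 lower in PDGFB tumors, beside 14.6% of all genes called higher, 17.4% lower and 32.1% in either direction. The median log2 fold changes of the 6 were −1.93, −2.60 and 0.19, and those of all genes tested were 0.00, 0.02 and 0.03. Mag passed the filter through normal brain alone, and without it (a tally added after the data were seen) 2 of 5 fell in PDGFB tumors and 4 of 5 in RAS tumors, 2 of 5 were higher in PDGFB than in RAS tumors, and the medians were −0.18, −1.96 and 0.28. Ugt8a is still counted there, though it was above the filter level in 4 PDGFB, 0 RAS and 2 normal libraries. Passing the filter thus favored a Ugt8a that was lower in RAS tumors. The calls other than Mag and Ugt8a were Mbp, Mobp and Cldn11 in RAS tumors against normal brain, and Cldn11 between tumor types. Without RAS tumor 2, which stood apart from the other RAS tumors, the counts over the 6 tested members were 3, 5 and 3. Of all genes in that fit 24.7% and 28.4% were called lower, and 20.3% higher between tumor types. Over all 9 members, 5 had every tumor below every normal brain in either tumor type (Mbp, Mobp, Mag, Mog and Ermn). Mog and Ermn were not tested, so of the 6 tested members these were Mbp, Mobp and Mag. Among all tested genes the share was 26.2% for PDGFB and 27.2% for RAS tumors. Between tumor types no member had groups that did not overlap, beside 9.21% of tested genes higher and 10.5% lower. The scale matters for all genes: with library totals in place of TMM factors the median of all genes moved by 0.23 (log2) in PDGFB tumors against normal brain and by 0.14 between tumors, and calls went from 1938 lower and 1562 higher to 1557 and 2052, and from 1344 and 1131 to 1075 and 1448. The tumor groups were set against the same 3 normal brains, so these comparisons share samples.

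**Figure D2:**
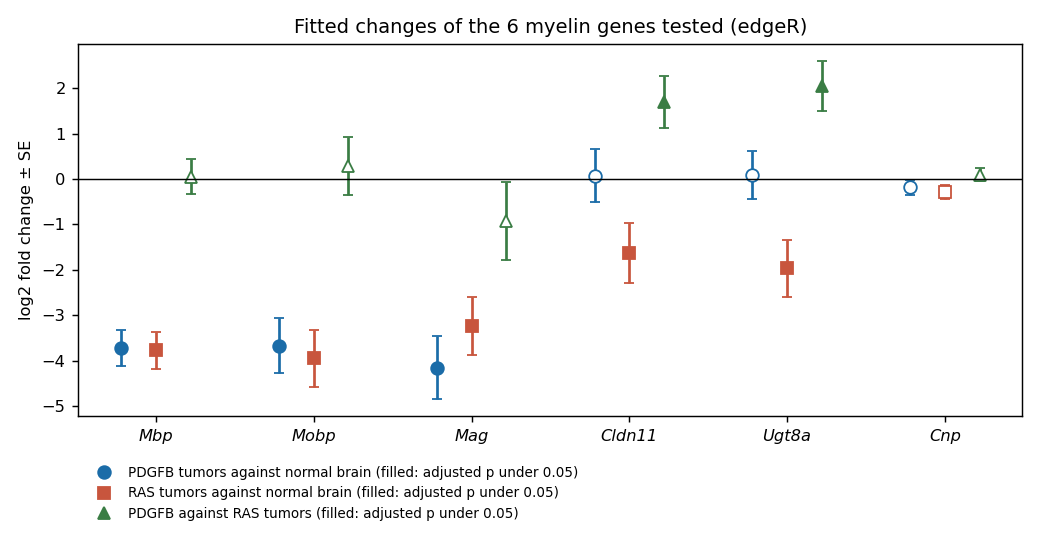
Fitted log2 fold changes (vertical axis) with their standard errors for the 6 myelin genes that passed the low-count filter, in PDGFB tumors against normal brain, RAS tumors against normal brain, and PDGFB against RAS tumors. Filled symbols passed an adjusted p under 0.05. Mbp, Mobp and Mag lie between −3.23 and −4.16 in both tumor types, and Cldn11 and Ugt8a lie near 0 in PDGFB tumors and below 0 in RAS tumors.

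The 3 members under the filter were described from their reads. Mog, an immunoglobulin-like protein of the outer sheath (chromosome 17, 37010743 to 37023398), had 20, 8 and 14 reads in normal brain, 3, 4, 3, 2 and 0 in PDGFB tumors and 0, 3, 6, 0 and 0 in RAS tumors. Every tumor was below every normal brain. Per assigned read, normal brain held 6.92-fold more than PDGFB tumors (95% counting interval 3.58 to 14.4) and 8.59-fold more than RAS tumors (4.12 to 20.1). The exact two-sided permutation test of mean CPM gave p = 0.0357 in each case, the smallest value that 5 samples against 3 allow.

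Ermn, an actin-binding protein of mature oligodendrocytes (chromosome 2, 58045113 to 58052864), had 12, 10 and 5 reads in normal brain. In PDGFB tumors 2 reads fell in tumor 2 and none in the other 4, and RAS tumors had 0, 2, 0, 1 and 1. Every tumor was again below every normal brain (exact permutation p = 0.0357 against either tumor type). The ratio of normal brain to PDGFB tumors was 26.7 (95% counting interval 6.71 to 232) and to RAS tumors 12.4 (4.33 to 48.8). Opalin, a membrane glycoprotein of mature oligodendrocytes (chromosome 19, 41061710 to 41077113), had 7, 0 and 3 reads in normal brain, 0, 1, 0, 0 and 2 in PDGFB tumors, and 0 in all 5 RAS tumors. Since normal brain 2 also had none, its groups overlapped. With 3 reads over the RAS group as the floor, Opalin was 6.13-fold lower there. That value takes the normal brain reads as exact and is not a strict lower bound. The ratio of normal brain to PDGFB tumors was 6.59 (95% counting interval 1.70 to 37.3). Neither difference passed (exact permutation p = 0.214 for both). Of the 9 such tests run, those between tumor types gave exact permutation p = 0.921, 0.444 and 0.405 for Mog, Opalin and Ermn, and 0.00794 is the smallest value that 5 against 5 allow. In edgeR fits with no filter, Mog and Ermn were called lower in both tumor types (adjusted p at most 2.58e-04) and Opalin in RAS tumors (adjusted p = 0.00333). With a looser filter the same calls had adjusted p of at most 0.00288 for Mog and Ermn and 0.00738 for Opalin.

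Ermn shares 237 bases with Galnt5, a gene for an enzyme that adds sugars to proteins, on the opposite strand. The shared stretch, chr2:58045624-58045860, is untranslated in both genes. Galnt5 had 131, 101 and 139 reads in normal brain, 15, 7, 11, 26 and 16 in PDGFB tumors and 4, 45, 4, 4 and 5 in RAS tumors. It thus had more reads than Ermn in every library and a fall like that of the myelin genes, with RAS tumor 2 again above the other RAS tumors. Galnt5 was 10.2-fold lower in PDGFB tumors (log2 fold change −3.36 ± 0.56 SE, edgeR adjusted p = 1.49e-04) and 11.4-fold lower in RAS tumors (−3.51 ± 0.58 SE, adjusted p = 6.80e-05). Between tumors its log2 difference was 0.16 (edgeR adjusted p = 0.861), and 1.62 without RAS tumor 2 (adjusted p = 0.00273). Whether the Galnt5 reads belong to Ermn cannot be told apart in these counts.

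Cnp, an enzyme of the myelin cytoplasm (chromosome 11, 100574904 to 100591729), was the most abundant member and the flattest. It had 411, 309 and 435 reads in normal brain, 421, 438, 453, 384 and 424 in PDGFB tumors and 379, 356, 319, 421 and 324 in RAS tumors. All groups overlapped, at 702 ± 68.7, 656 ± 48.3 and 597 ± 58.1 CPM. RAS tumor 2, at 588 CPM, lay among the other RAS tumors, which ran from 548 to 695. The log2 fold changes were −0.18 ± 0.16 SE in PDGFB tumors (edgeR adjusted p = 0.360, and 0.05 with library totals in place of TMM factors), −0.28 ± 0.16 SE in RAS tumors (adjusted p = 0.132) and 0.10 ± 0.14 SE between them (adjusted p = 0.603). Cnp shares 154 bases, chr11:100591412-100591565, with Dnajc7 on the opposite strand, where they are coding for Dnajc7, a chaperone partner, and noncoding for Cnp. Dnajc7 had 46, 37 and 33 reads in normal brain, 67, 53, 60, 35 and 53 in PDGFB tumors and 76, 67, 69, 76 and 81 in RAS tumors. RAS tumors had 1.66-fold more of it than normal brain (0.73 ± 0.25 SE as log2, edgeR adjusted p = 0.0172) and 1.51-fold lower in PDGFB than in RAS tumors (−0.60 ± 0.21 SE, adjusted p = 0.0332). The first of these calls ended without normal brain 3 (adjusted p = 0.0699) and the second without 8 of the 13 libraries, each left out alone (adjusted p over the 13 fits 0.0211 to 0.107). Which of these reads come from Cnp, or from an allele that carries Cre, cannot be told apart.

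**Figure D3:**
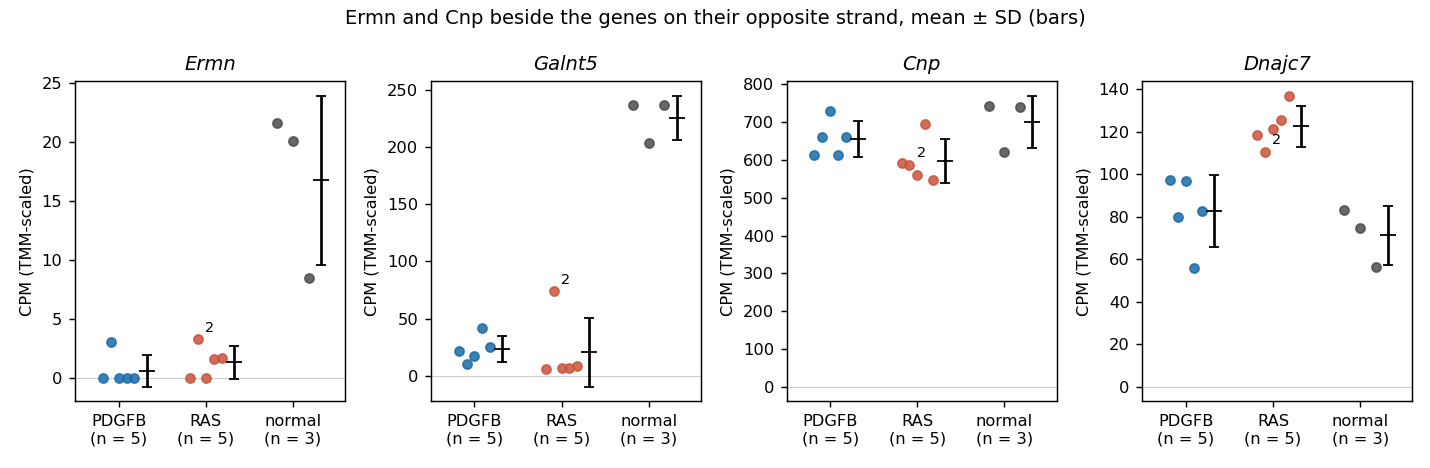
Ermn and Cnp beside Galnt5 and Dnajc7, the genes whose exons overlap theirs on the other strand, in CPM (vertical axis, from 0) per library, with mean and SD as bars. Galnt5 falls from 203 to 237 CPM in normal brain to at most 74.3 in any tumor, while Cnp stays between 548 and 742 in all 13 libraries.

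Levels were compared between genes per kilobase of exon. This takes all reads under a name as those of the gene, which is not known for Cnp and Ermn, so their places are uncertain. In normal brain the order was Cnp (193 CPM per kb), Mbp (65.4), Mobp (36.2), Mog (14.9), Cldn11 (14.8), Mag (8.46), Ermn (4.61), Ugt8a (4.23) and Opalin (2.01). Neighbouring ranges overlapped between Mog and Cldn11, Cldn11 and Mag, Ermn and Ugt8a, and Ugt8a and Opalin. In PDGFB tumors Cldn11 stood next to Cnp, at 16.8 CPM per kb (range 12.9 to 21.8), above Mbp at 5.26 (2.95 to 8.47) and Ugt8a at 4.80, without overlap between Cldn11 and Mbp. In RAS tumors Cldn11 at 5.03 and Mbp at 4.97 CPM per kb overlapped widely, and Opalin was at 0.

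Ratios within a library do not depend on how libraries are scaled. For every Mbp read normal brain had 0.0181 to 0.0642 Cldn11 reads, and PDGFB tumors 0.417 to 1.29. On the log2 scale, with 0.5 read added, the ratio was 4.12 higher in PDGFB tumors. For Ugt8a the ratio was 0.0272 to 0.0374 in normal brain and 0.244 to 0.96 in PDGFB tumors, a log2 difference of 3.80. In neither case did the groups overlap, and the exact two-sided permutation test gave p = 0.0357 for both, the smallest value possible. The ratio of Mobp to Mbp was instead alike in range, 0.417 to 0.525 in normal brain and 0.40 to 0.75 in PDGFB tumors, with a log2 difference of 0.10 (exact permutation p = 0.929). In RAS tumors the ratios to Mbp spread widely, from 0.0323 to 0.80 for Cldn11, 0 to 0.70 for Ugt8a and 0 to 0.679 for Mobp, and differed from normal brain by 1.91, 1.66 and −1.21 on the log2 scale (exact permutation p = 0.107, 0.143 and 0.143). Between tumors, PDGFB tumors had the higher ratio for Cldn11 (2.21, exact permutation p = 0.0317), Ugt8a (2.14, p = 0.0556) and Mobp (1.31, p = 0.0397). With each tumor left out in turn, the exact permutation p ran from 0.0159 to 0.0635 for Cldn11 (above 0.05 without PDGFB tumor 1, 2 or 5 or RAS tumor 1, 4 or 5), from 0.0159 to 0.111 for Ugt8a (below 0.05 without RAS tumor 3) and from 0.0159 to 0.0794 for Mobp (above 0.05 without any tumor but RAS tumor 2). Of the 15 ratio comparisons made, those of Mag gave exact permutation p = 0.294 to 0.714. For Cnp the ratio was 3.61 and 3.72 higher on the log2 scale in PDGFB and RAS tumors than in normal brain (exact permutation p = 0.0357 for both) and differed by −0.11 between tumors (p = 0.833). None of the 15 p-values was adjusted, and the ratios were chosen after the counts were seen.

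**Figure D4:**
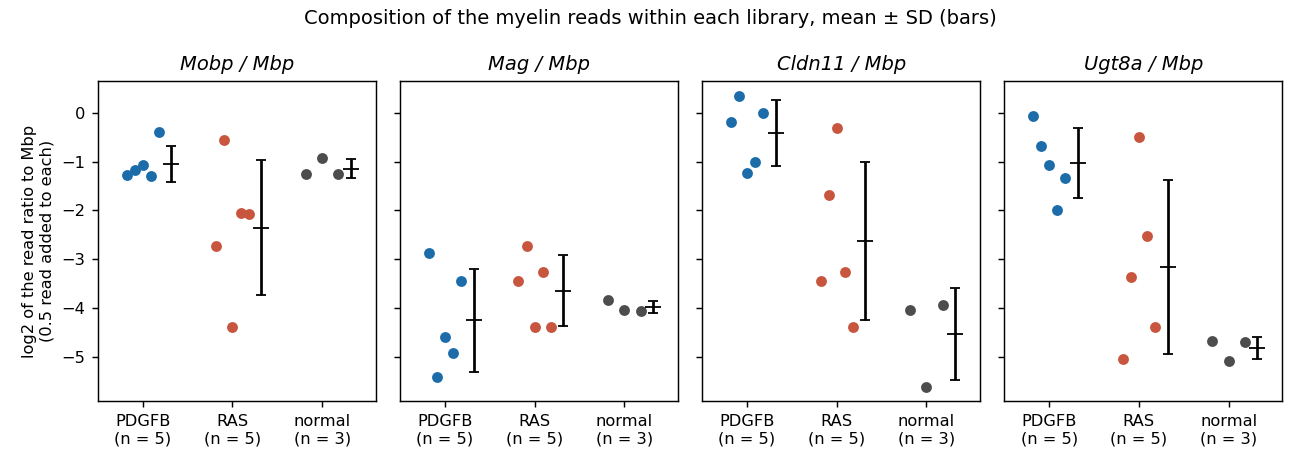
Log2 ratio of the reads of Mobp, Mag, Cldn11 and Ugt8a to those of Mbp within each library (vertical axis, 0.5 read added to each), by group, with mean and SD as bars. The Cldn11 and Ugt8a ratios of all 5 PDGFB tumors lie above those of all 3 normal brains, while the Mobp ratios of these groups overlap.

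RAS tumor 2 set the spread of the RAS group for Mbp, Mobp and Mag. Its values were 92.4 CPM for Mbp, 62.7 for Mobp and 13.2 for Mag, and the other 4 RAS tumors had 17.6 to 52.5, 0 to 11.8 and 0 to 1.69. The 8 members without Cnp summed to 213 CPM in this tumor, 31.2 to 71.1 in the other RAS tumors, 82.7 to 158 in PDGFB tumors and 761 to 1044 in normal brain. The 10 astrocyte markers summed to 695 CPM, against 128 to 254 in the other RAS tumors and 711 to 896 in normal brain. The 12 neuron markers other than the neurofilament genes summed to 522 CPM, against 76.0 to 223 in the other RAS tumors and 1857 to 1951 in normal brain. With the 3 neurofilament genes included, its neuron sum was 4177 CPM, against 4298 to 8910 in the other RAS tumors. PDGFB tumors had astrocyte sums of 213 to 504 CPM and neuron sums, counted the same way, of 194 to 423. The part of these markers in the myelin values was not tested. Schwann cells also make myelin, and 6 of their markers summed to 30.6 to 36.3 CPM in PDGFB tumors, 20.3 to 38.0 in RAS tumors and 7.22 to 24.2 in normal brain. Pmp22, a membrane protein that other cells make too, was the 1 marker of these tested, and it was 4.29-fold higher in PDGFB tumors than in normal brain (28.4 ± 1.45 against 6.02 ± 4.21 CPM, edgeR adjusted p = 0.00292). The markers Pmp2 and Ncmap had no read in any of the 13 libraries. In PDGFB tumors against normal brain 14 of 15 neuron, 5 of 9 tested astrocyte and 1 of 7 tested microglia and macrophage markers fell, and 0, 0 and 2 rose. In RAS tumors 13, 5 and 0 fell, and 0, 0 and 5 rose. Over all genes tested, 25.1% fell and 20.2% rose in PDGFB tumors, and 29.2% fell and 27.0% rose in RAS tumors, so the microglia and macrophage counts in PDGFB tumors are near these shares. None of 8 endothelial markers was tested, and the most abundant, Flt1, had 6.80 ± 3.80, 13.2 ± 7.93 and 6.19 ± 4.57 CPM in PDGFB tumors, RAS tumors and normal brain.

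Other myelin genes did not move as a block. Of 19 further proteins of the myelin membrane and its junctions 11 were tested. In PDGFB tumors 3 fell and 4 rose against normal brain (median 0.69 on the log2 scale, over all genes 0.00), and in RAS tumors 5 fell and 2 rose (median −1.11, over all genes 0.02), beside the shares of all genes just given. Mal, a lipid raft protein of myelin, fell from 67.7 ± 10.6 CPM in normal brain to 5.04 ± 6.15 in PDGFB and 4.64 ± 2.14 in RAS tumors (edgeR adjusted p = 1.16e-05 and 6.23e-06). Its highest values were 15.95 CPM in PDGFB and 8.25 in RAS tumors. Passing the filter, set at 16.4 CPM, thus favored a Mal that was higher in normal brain. Tspan2 also fell in both tumor types. Those that rose in PDGFB tumors were Cd9, Pmp22, Jam3 and Mcam, the last from 6.87 ± 2.78 to 70.0 ± 48.4 CPM (adjusted p = 7.33e-04), an adhesion molecule that is also made by vessel cells. Mcam faces Gm10687 on the other strand, and 5 of the 11 face an exon of some gene. Of 8 tested lipid genes Enpp2 fell, and Cers2, a ceramide synthase, and Elovl1, a fatty acid elongase, rose in both tumor types, which is near or below the shares of all genes. Elovl1 faces exons of the mitotic gene Cdc20 and Cers2 those of Setdb1, so their reads can be those of other genes. Elovl1 went from 2.44 ± 1.02 CPM to 38.0 ± 15.8 and 39.4 ± 11.1 (adjusted p = 6.49e-05 and 2.96e-05).

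Regulators of the lineage were called higher more often than lower in PDGFB tumors, against normal brain and against RAS tumors. Of 13 tested regulators, 6 rose and 2 fell in PDGFB tumors against normal brain (median 0.10), 1 rose and 3 fell in RAS tumors (median −0.08), and 8 were higher and 1 lower in PDGFB than in RAS tumors (median 1.28). Among all tested genes the shares higher and lower were 20.2% and 25.1%, 27.0% and 29.2%, and 14.6% and 17.4% in the same order, and the 3 of 13 that fell in RAS tumors are near their share. The 2 that fell in PDGFB tumors, the 1 that rose in RAS tumors and the 1 lower between tumors are below their shares. Sox10, which activates myelin genes, rose from 13.2 ± 6.15 CPM in normal brain to 127 ± 36.4 in PDGFB tumors (log2 fold change 3.19 ± 0.49 SE, edgeR adjusted p = 7.25e-05) and 65.5 ± 34.0 in RAS tumors (2.27 ± 0.50 SE, adjusted p = 8.37e-04). Olig1 (facing Gm15966) stood at 19.7 ± 4.10 CPM in normal brain, 179 ± 38.1 in PDGFB tumors (adjusted p = 0.00199) and 28.5 ± 34.4 in RAS tumors (adjusted p = 0.623). Myt1, a zinc finger factor of the early lineage, had 2 reads in all normal brains, 69 in PDGFB tumors and 7 in RAS tumors (adjusted p = 0.00102 for PDGFB tumors and 0.561 for RAS tumors against normal brain). Of 12 tested precursor markers 10 rose and 0 fell in PDGFB tumors (median 2.71), and 3 rose and 1 fell in RAS tumors (median 0.10). The 3 that rose in RAS tumors are near the share of 27.0%. Olig1, Olig2 and Gpr17 stand in both the regulator and the precursor list, so the counts of these lists are not independent. Pdgfra, the receptor of precursor cells for PDGF (facing Gm42802 and Gm42803), averaged 12.9 ± 1.76 CPM in normal brain and 206 ± 52.5 in PDGFB tumors, and ranged from 29.6 to 79.0 in RAS tumors.

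Among 17 tested genes of the mature cell's cytoplasm, 9 fell and 0 rose in PDGFB tumors against normal brain (median −1.02), and 6 fell and 5 rose in RAS tumors (median −0.05). The shares of all tested genes were 25.1% lower and 20.2% higher in PDGFB tumors and 29.2% and 27.0% in RAS tumors, and the RAS counts are near them. Between tumor types 2 were higher and 6 lower in PDGFB tumors (median −0.52), beside 14.6% of all tested genes higher and 17.4% lower. The 2 that were higher are near their share. Tppp, a tubulin-binding protein, fell from 94.5 ± 3.70 CPM to 11.6 ± 8.98 in PDGFB and 5.98 ± 7.63 in RAS tumors (edgeR adjusted p = 2.48e-04 and 3.59e-05). Edil3, a secreted adhesion protein, and Ndrg1, a stress-induced protein of myelinating cells (facing Gm2895 and Gm17035), fell in PDGFB tumors, to 1.89 ± 2.07 and 2.16 ± 2.53 CPM, and were lower there than in RAS tumors, at 13.2 ± 6.71 and 23.9 ± 16.7 (adjusted p = 0.00379 and 0.00122). No PDGFB tumor was above 4.83 CPM for Edil3 or 6.04 for Ndrg1. Passing the filter, set at 16.4 CPM, thus favored values that were lower in PDGFB tumors.

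The genes closest in pattern to the mean of the 6 tested members were found by Pearson correlation of log2(CPM + 1) over the 13 libraries. Among the 5 closest were Dll1 (r = 0.977, facing A930024N18Rik), AC148021.1 (0.974, facing Apba1), Kcnq3 (0.973) and Gad1 (0.972). The libraries share group, scaling and depth, so these values describe the pattern of high normal brain, lower PDGFB and lowest RAS means. Gad1, which makes the transmitter GABA, had 55.4 ± 15 CPM in normal brain, 8.99 ± 3.47 in PDGFB tumors and 3.98 ± 7.96 in RAS tumors. The potassium channel gene Kcnq3 had 27.1 ± 6.29, 3.70 ± 1.79 and 1.32 ± 2.95 CPM.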

How the data were processed

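Polyadenylated RNA of 13 samples was sequenced from TruSeq libraries, per the labels' protocols. The deposited values are raw counts, whole reads per Ensembl gene and library with no normalization. The submitters' processing notes list the tools fastp (0.22.0) and STAR (2.7.9a) with build GRCm38. The annotation and the strand setting are not given in the sources used here. Summary lines of reads in no gene, unmapped, multimapping or ambiguous were left out of library sizes. Of the 55416 genes, 52135 had a symbol, position and exons in GENCODE M21 (GRCm38).

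The test across genes was edgeR's quasi-likelihood F test (edgeR 4.0.16, R 4.3.3) on all 13 libraries with the 3 groups as means and TMM scaling. It ran on 7722 genes left by filterByExpr at a minimum count of 10 and a minimum total of 15. All 3 comparisons were two-sided, and a call is a p under 0.05 after Benjamini-Hochberg adjustment over these genes. Standard errors were derived from the F statistic. The procedure was tested on simulated data. Members under the filter were compared by exact permutation tests over samples. A group with no read was set to 3 reads, and that ratio takes the reads of the other group as exact. Counting intervals (exact Clopper-Pearson, 95%) cover counting error only. Replicates differed by more than sampling noise (lowest chi-square per degree of freedom 1.79). Alternatives were DESeq2 1.42.0, limma-voom (limma 3.58.1), other factors and filters, fits of 2 groups, genes with no exon opposite, a replicate block, and leaving out each library.

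The members and lists were chosen with earlier results of these data known. Named were all members, the genes opposite them, per list up to 3 called genes with the largest change in PDGFB tumors against normal brain or else the most abundant one, and the 5 genes of most similar pattern outside the members and predicted genes. The ratios to Mbp and their alternatives were chosen after the counts were seen. Some genes that this rule names are not reported here.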

Additional observations from a re-analysis of the deposited data

Results flagged for a closer look

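In groups of 5 libraries, a value was looked at again where its gap to the nearest other library was more than 0.71 of the range of its group. For normally distributed values chance marks about 1 in 20 groups, and 21 groups were examined over the 9 members, Galnt5 and Dnajc7. For counts near 0 that rate is not known, since a group with a single library above 0 is always marked. RAS tumor 2 stood above the other RAS tumors for Mag (13.2 CPM from 8 reads, others 0 to 1.69), Mobp (62.7 CPM from 38 reads, others 0 to 11.8) and Galnt5 (74.3 CPM from 45 reads, others 6.24 to 8.46). Without it the log2 fold changes of Mag, Mobp and Galnt5 in RAS tumors against normal brain were −4.51, −5.50 and −4.88. PDGFB tumor 2 was the only PDGFB tumor with Ermn reads (3.02 CPM from 2 reads).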

How the results depend on the processing

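In PDGFB tumors against normal brain, 5 of 9 members were called with no filter or a looser filter (3 of 6 in the fit reported). Of all genes in those fits 9.69% and 12.4% were called lower. With each library left out 3 to 4 members were called, beside 17.9% to 24.9% of all genes. In RAS tumors against normal brain the count was 8 of 9 with no filter or a looser filter, beside 12.9% and 16.5% of all genes called lower. It was 3 of 5 in a fit of these 2 groups only (28.4% of all genes). With each library left out it was 3 to 6 (3 without normal brain 1), beside 23.2% to 29.3% of all genes. Between tumor types the count was 1 in a fit of the 2 groups only, where 3 members were tested and 14.1% of all genes were called higher. With each library left out it was 1 to 3, beside 12.3% to 20.3% of all genes. A replicate block on the tumor numbers also gave 1 (Cldn11). With that block 810 genes were higher and 893 lower of 5688, beside 804 and 1026 without it. Deviations of same-numbered tumors correlated at −0.128 to 0.138, and 1 of 5 tumors in each group was closest to its own number. With so few tumors these values cannot show that the samples were unpaired. Cldn11 in RAS tumors lost its call with library totals (edgeR adjusted p = 0.0612) and in the 2 groups only (0.116). Some members that passed no test changed sign: Cnp in PDGFB tumors with library totals (0.049) and Ugt8a there with limma-voom (−0.011). With each library left out, values ran from −0.251 to 0.552 for Cldn11 and −0.156 to 0.37 for Ugt8a in PDGFB tumors, and between tumors from −0.155 to 0.523 for Mbp, −1.5 to 0.45 for Mag, −0.005 to 1.933 for Mobp and −0.127 to 1.625 for Galnt5. The log2 ratio to Mbp ran from −0.627 to 0.014 for Mag and −0.06 to 0.21 for Mobp in PDGFB tumors against normal brain, and from −0.46 to 0.112 for Cnp between tumors. With 1 read added the Mag ratio was 0.144. In ratio tests against normal brain, leaving out a library of either group puts the smallest possible p above 0.05. Over the log2 fold changes of the members, Galnt5 and Dnajc7, 442 of 496 alternative values kept direction and side of the threshold, 34 lost a call, 2 gained one and 18 changed sign. The causes were not tested. Genes with a few reads per library limit what can be detected at this number of assigned reads.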

Other observations

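RAS tumor 3 had a different makeup from RAS tumor 2. It had no read of Mobp or Mag and the fewest of Mbp among the 13 libraries (10), and the most of Mog (6) and Ugt8a (7) among RAS tumors, with 8 of Cldn11. Its ratio of Cldn11 to Mbp reads was 0.80, inside the range of PDGFB tumors (0.417 to 1.29), and its ratio of Ugt8a to Mbp was 0.70 (PDGFB tumors 0.244 to 0.96). The 13 precursor markers summed to 450 CPM in it, the highest of the RAS tumors, which otherwise ran from 119 to 300. PDGFB tumors ran from 965 to 1273. The difference between these RAS tumors rests on few reads and was not tested.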
